A study of Homo sapiens with 6 samples.

Results

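The genes described here are the Wnt ligands, their receptors and inhibitors, and the TCF/LEF factors that read the signal in the nucleus. They were chosen by gene symbol alone: the WNT, FZD, SFRP, DKK, RSPO, DVL and TCF/LEF families and LGR4 to LGR6. The rule also named LRP5, LRP6, NKD1, NKD2, RNF43, ZNRF3, NOTUM, WIF1, SP5 and PORCN. The deposited table held 53 of these genes among 31785 rows, and had no row for RNF43 or WIF1. RNA sequencing covered 6 libraries of D283 Med, a cell line from a childhood medulloblastoma, a tumour of the cerebellum, which the series title places in Groups 3 and 4. The labels give 3 libraries the genotype WT and 3 the knockdown of Musashi-1 (MS1 in the genotype label). Musashi-1 binds RNA and is known from neural stem cells. All 6 came from the same line, kept in DMEM/F12 with serum, and the labels name no other agent. The knockdown method, any control construct in the WT cells and the number of cultures per group are not stated in the labels. Where libraries of a group share a culture, p-values measure only the spread between those libraries, which may be technical. The comparison asks how the libraries labelled Musashi-1 knockdown differ from WT.

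In the canonical pathway a lipid-modified Wnt protein joins a Frizzled receptor and an LRP5 or LRP6 co-receptor at the cell surface. Dishevelled is recruited, the complex that destroys beta-catenin is held back, and beta-catenin binds TCF/LEF factors at their target genes. In medulloblastoma the pathway is best known for the WNT subgroup, in which activating mutations of CTNNB1, the gene of beta-catenin, are typical, whereas Group 3 and Group 4 tumours lack such a defining mutation.

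Values are given as normalised read counts, recovered from the deposited log2-like values, in the order of libraries 1, 2 and 3 of a group. A difference is the knockdown mean less the WT mean on that log2-like scale. It comes near a log2 fold change for abundant genes and understates the change of weak ones. WT libraries held 17299671 to 38790342 reads and knockdown libraries 18895997 to 24442276. MSI1 mRNA, the check of the labels, had 1586, 1572 and 1378 normalised reads in WT and 1385, 1197 and 1281 in the libraries labelled knockdown. The groups overlapped at MSI1, and its difference of -0.21 (SE 0.12, adjusted p = 0.304, limma) did not pass the test. The labels, not the MSI1 level, thus define the knockdown group in what follows. Of 12 listed Group 3 and Group 4 markers in the table, 9 were kept, led by OTX2, a transcription factor of these tumours. They went both ways, and only NPR3 passed the test, falling in knockdown (13052 to 7759 normalised reads, adjusted p = 0.0437, limma). OTX2 (23664 to 30373, adjusted p = 0.229) and MYC (16640 to 23088, adjusted p = 0.0976) had every knockdown library above WT. RBM24 (281 to 208) and UNC5D (84.9 to 47.4) had every one below. The other kept markers overlapped between the groups. The summed level of the list was 55073 to 74740 in WT and 69001 to 78784 in knockdown. Of 7 hedgehog subgroup and granule precursor markers 5 were kept, and of 7 neuron markers 3. DCX, a marker of young neurons below the minimum, had 1.54 to 15.1 normalised reads in WT and 52.6 to 60.1 in knockdown. The other neuron markers in the table had lower means in knockdown, with groups that overlapped. These were SYT1 (2627 to 2058), SYP (450 to 380), SNAP25 (173 to 136), RBFOX3 (23.1 to 12.6), TUBB3 (22.9 to 9.94) and STMN2 (7.34 to 5.64). The part of these markers in the Wnt results was not tested. No leukocyte marker was kept (0 of 5, summed level 10.2 to 30.7 in WT and 11.1 to 22.6 in knockdown), and none of 3 markers of the WNT subgroup was (19.0 to 25.2 and 8.80 to 32.4). Of 8 fibroblast markers 4 were kept. The 8 together summed to between 2215 and 2790 in WT libraries and between 2201 and 2375 in knockdown libraries. COL1A2 (23.8 to 32.5) had every knockdown library above WT and COL1A1 (285 to 236) every one below, while PDGFRA and PDGFRB overlapped. DCN, below the minimum, had 3.07 to 14.6 normalised reads in WT and 25.2 to 27.9 in knockdown. LUM and THY1 had means under 10 normalised reads in both groups. COL3A1 was under 10 in 5 libraries and at 38.5 in knockdown 1. Of 6 endothelial markers 2 were kept (VWF and KDR) and of 5 astrocyte markers 1 (SLC1A3), all with groups that overlapped. In every library, rows with 2 reads were more frequent than rows with 1 read, by a factor of 1.99 to 3.06, so single reads in low counts may not be separate molecules.

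Of the 53 Wnt pathway genes, 31 lay above the minimum level of the test, in both groups, and 22 lay below it. A single one passed the test: the co-receptor gene LRP5 rose in knockdown. That is 3.23% of the 31 tested, beside 4.1% of all 13558 genes tested (limma, adjusted p under 0.05). At an unadjusted p under 0.05 there were 7 of 31 (22.6%), beside 22.0% of all genes. The groups did not overlap for 6 of 31 (19.4%), beside 27.8% of all genes; knockdown was higher for 5 of these (16.1%, beside 14.1%) and lower for 1 (3.23%, beside 13.6%). The 31 genes had a median difference of -0.08, with 13 higher and 18 lower, against a median of 0.01 over all genes. None of these shares stood above that of all genes by more than a few percentage points, so they are no result about the pathway as a whole. In bulk RNA, fewer cells of a kind and less RNA per cell cannot be told apart.

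**Figure D1:**
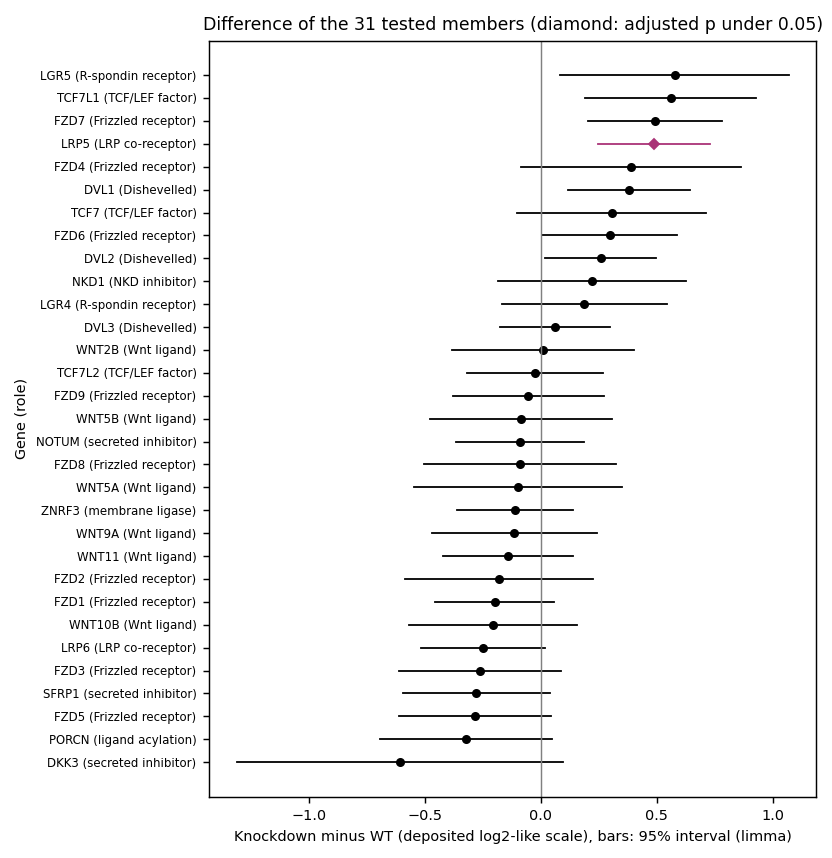
Difference between knockdown and WT for the 31 tested Wnt pathway genes, ordered by size, on the deposited log2-like scale. Points are the fitted differences and bars their 95% confidence intervals; LRP5, the diamond at 0.49, is the single gene with an adjusted p under 0.05. Intervals of LGR5, TCF7L1, FZD7, DVL1, DVL2 and FZD6 also lie above 0, before adjustment.

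LRP5 encodes one of the 2 co-receptors that bind Wnt together with Frizzled. It lies on the plus strand at chr11:68312609-68449275 (GRCh38, GENCODE 29). It had 2406, 2298 and 2141 normalised reads in WT and 3448, 3143 and 3130.0 in knockdown. Every knockdown library was above every WT library. The means were 2281 ± 133 and 3240.1 ± 179.8 (SD, n = 3 each), a 1.42-fold rise, and the difference was 0.49 (SE 0.11, 95% confidence interval 0.24 to 0.73, adjusted p = 0.0383, limma). It kept its direction in all 17 alternative settings and passed in 10 of them, with adjusted p from 0.017 to 0.173. The call was lost without WT 2 (0.0808), WT 3 (0.0680), knockdown 1 (0.173), knockdown 2 (0.0969) or knockdown 3 (0.135), and, among the other settings, with no filter on low values (0.0527) or the replicate number as a block (0.0837).

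LRP6, the paralogous co-receptor on the minus strand at chr12:12116025-12267012, had 2372, 2235 and 2543 normalised reads in WT. In knockdown it had 1812, 2261 and 1900.3. Its difference was -0.25 (95% confidence interval -0.52 to 0.02, adjusted p = 0.254, limma), and knockdown 2 lay inside the WT range. The ratio of LRP5 to LRP6 reads was 1.01, 1.03 and 0.842 in WT and 1.90, 1.39 and 1.65 in knockdown. Per kilobase of exon, LRP5 made up 61.6% ± 2.66 of the 2 co-receptors in WT and 73.2% ± 3.09 in knockdown (SD, n = 3). The groups did not overlap in this share; the ratio was looked at after the values of both genes were seen and has no test.

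**Figure D2:**
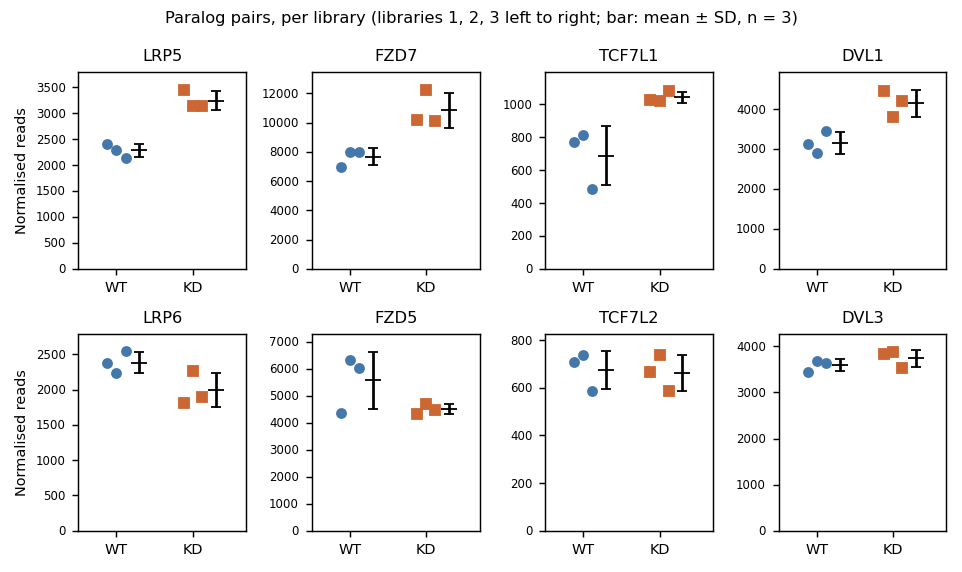
Normalised reads of LRP5, LRP6, FZD7, FZD5, TCF7L1, TCF7L2, DVL1 and DVL3 in each library (linear axes from 0), related genes one above the other, with the mean and SD of 3 libraries as a bar. LRP5, FZD7, TCF7L1 and DVL1 are higher in every knockdown library than in any WT library, while LRP6, FZD5, TCF7L2 and DVL3 overlap between the groups.

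Musashi proteins bind short UAG-containing motifs, often in 3′ untranslated regions (3′UTRs), so these regions were searched on the transcript strand for GTAGT and for ATAGT, then for GTTAGT and for ATTAGT. At least 1 match was present in 23 of the 31 tested Wnt pathway genes (74.2%), beside 7879 of 11593 tested genes with a 3′UTR (68.0%). The 3′UTRs of the Wnt pathway genes were longer, with a median of 1576 bases, beside 1201. The median density was 1.18 matches per kilobase, beside 1.35, and the density over all 3′UTRs together was 2.04, beside 1.94. LRP5 had 1 match in a 3′UTR of 205 bases and LRP6 had 10 in 5101 bases. FZD7 had 1 in 2073 bases, FZD5 had 18 in 4396, TCF7L1 had 1 in 926, and DVL1 had 0 in 866. A match is a description of letters and not a bound site. The windows below show the single match of LRP5, FZD7 and TCF7L1 and 1 match each of LRP6 and FZD5, the relatives with which LRP5 and FZD7 are compared; capitals mark the motif, written as DNA of the transcript strand. Their positions are chr11:68449102-68449122 (plus) for LRP5, chr2:202037779-202037799 (plus) for FZD7, chr2:85309495-85309515 (plus) for TCF7L1, chr12:12118079-12118099 (minus) for LRP6 and chr2:207766912-207766932 (minus) for FZD5, on GRCh38.
LRP5 3′UTR: ccctgtaaATAGTtttaaata
FZD7 3′UTR: cagataccATAGTgaacgaag
TCF7L1 3′UTR: ctcattgaGTAGTaatgattc
LRP6 3′UTR: aagattatGTAGTtactttaa
FZD5 3′UTR: tttgtttgGTAGTtttgccaa

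The promoter table from RefSeq (GRCh38.p14) had 25 entries for 18 of the tested Wnt pathway genes, and the 250 bases before each start were searched on both strands. The TCF/LEF motif CTTTGAT or CTTTGAA, by which beta-catenin targets are often recognised, was in 0 of 25 entries, beside 2086 of 35116 in the whole table (5.94%). The GC box GGGCGG was in 17 of 25 (68.0%), beside 42.6%, and the median GC content was 65.2%, beside 58.0%. Matches could overlap one another, and no match says only that these letters are not in this window. Among the genes whose knockdown libraries all lay above WT, the window of DVL2 (64.4% GC, 1 GC box, no TCF/LEF motif) is not shown. The windows of LRP5, DVL1 and TCF7L1 are shown, with the GC box on either strand in capitals. They held 3, 5 and 1 GC boxes and no TCF/LEF motif, at chr11:68312341-68312590 (plus), chr1:1349419-1349668 (minus) and chr2:85133142-85133391 (plus).
LRP5 promoter: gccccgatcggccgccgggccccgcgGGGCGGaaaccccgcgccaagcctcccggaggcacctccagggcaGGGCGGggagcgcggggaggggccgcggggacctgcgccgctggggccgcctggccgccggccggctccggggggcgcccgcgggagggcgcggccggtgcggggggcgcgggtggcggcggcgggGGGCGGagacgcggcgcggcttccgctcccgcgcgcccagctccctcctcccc
DVL1 promoter: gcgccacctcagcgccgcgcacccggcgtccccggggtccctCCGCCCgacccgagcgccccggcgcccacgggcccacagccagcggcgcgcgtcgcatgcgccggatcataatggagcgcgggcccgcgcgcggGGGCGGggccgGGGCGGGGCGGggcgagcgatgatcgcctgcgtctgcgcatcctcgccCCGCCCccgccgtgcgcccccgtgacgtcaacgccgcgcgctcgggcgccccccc
TCF7L1 promoter: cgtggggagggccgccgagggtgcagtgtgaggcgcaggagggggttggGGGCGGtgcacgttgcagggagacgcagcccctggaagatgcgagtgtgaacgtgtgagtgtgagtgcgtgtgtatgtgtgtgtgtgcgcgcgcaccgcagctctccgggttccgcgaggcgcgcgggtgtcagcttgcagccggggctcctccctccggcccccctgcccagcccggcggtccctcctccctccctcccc

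All 9 Frizzled genes in the table, which encode the seven-pass receptors for Wnt, were above the minimum, and none passed the test (limma; 2 had an unadjusted p under 0.05, and 0 passed with limma's voom on the recovered reads). FZD7 had the highest level per kilobase of exon of the 31 tested genes, at 1985 normalised reads per kilobase in WT and 2807 in knockdown. It lies at chr2:202034587-202038445, plus strand. It had 6988, 7991 and 7998 normalised reads in WT and 10206, 12209 and 10081 in knockdown, groups that do not overlap. The ratio of means was 1.41 and the difference 0.49 (SE 0.13, 95% confidence interval 0.20 to 0.78), with an adjusted p of 0.0637 by limma. Library weights were also tried, set by how closely each library followed its group mean in these same values. They ran from 0.474 for WT 1 to 3.06 for knockdown 3, and the adjusted p was 0.0474 (limma). In the other 16 alternatives FZD7 did not pass.

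FZD5, second by level per kilobase in WT (831), lies at chr2:207762586-207769563, minus strand. It had 4360.3, 6319 and 6038 normalised reads in WT and 4332, 4694 and 4475 in knockdown. WT 1 lay inside the knockdown range, and the difference was -0.28 (SE 0.15, adjusted p = 0.287, limma). Without WT 1 the difference was -0.45 and the adjusted p 0.0458, and without WT 2 they were -0.19 and 0.545. FZD7 reads were 1.60, 1.26 and 1.32 times those of FZD5 in WT and 2.36, 2.60 and 2.25 times in knockdown. As a share of the 9 Frizzled genes per kilobase, FZD7 took 44.4% ± 2.53 in WT and 55.1% ± 2.55 in knockdown (SD, n = 3). FZD5 took 16.6%, 18.9% and 19.7% in WT and 13.2%, 12.8% and 13.6% in knockdown. The share of FZD7 RNA was thus higher, and that of FZD5 RNA lower, in each knockdown library than in any WT library. This description was chosen after the values were seen. A share of FZD5 also falls where FZD7 rises, and FZD5 reads themselves overlapped between the groups.

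**Figure D3:**
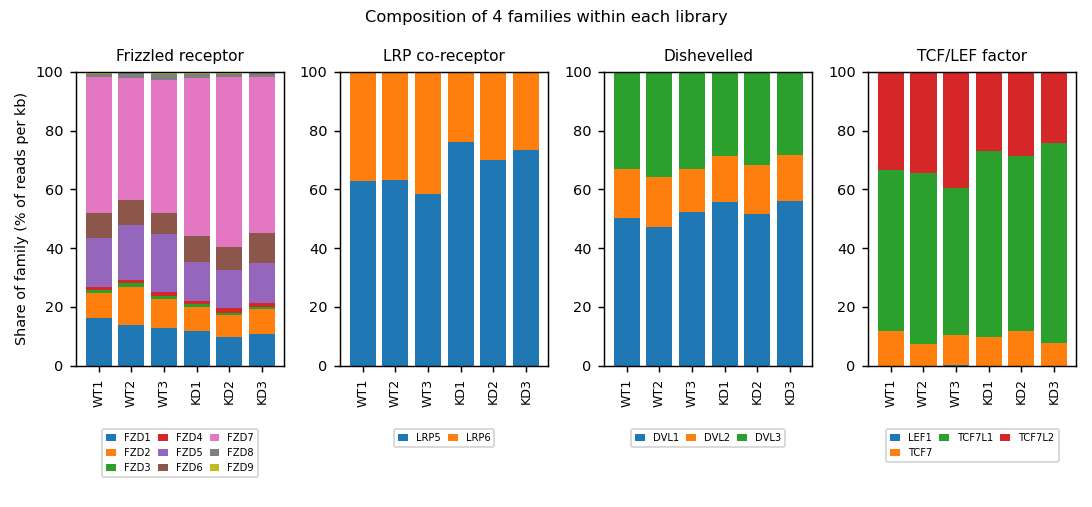
Share of each gene within its family, per kilobase of exon, in each of the 6 libraries, in percent. FZD7 takes 41.5% to 46.3% of Frizzled in WT and 53.4% to 58.1% in knockdown, and LRP5 takes 58.5% to 63.3% and 70.0% to 76.1% of the co-receptors.

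Among the other Frizzled genes the groups overlapped throughout. FZD1 had 4419, 4855 and 4077 normalised reads in WT and 4089, 3764 and 3713 in knockdown (difference -0.20, adjusted p = 0.342, limma). FZD6 had 1366, 1738 and 1326 in WT and 1758, 1713 and 2019 in knockdown (0.30, adjusted p = 0.222). FZD4, the receptor for norrin as well as Wnt, had 274, 383 and 499.7 in WT and 429, 743 and 445 in knockdown (0.39, adjusted p = 0.315). GENCODE 29 gives FZD4 18.9% of its exon bases in common with PRSS23, so its reads are uncertain. FZD2 had 706, 1338 and 952 in WT and 839.9, 826 and 857 in knockdown (-0.18, adjusted p = 0.606). FZD2 lies on the long arm of chromosome 17. On this arm 514 of 578 tested genes (88.9%) were lower in knockdown, beside 6642 of all 13558 tested genes. The median difference of the arm was -0.33. FZD3, FZD8 and FZD9 had differences of -0.26, -0.09 and -0.05.

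**Figure D4:**
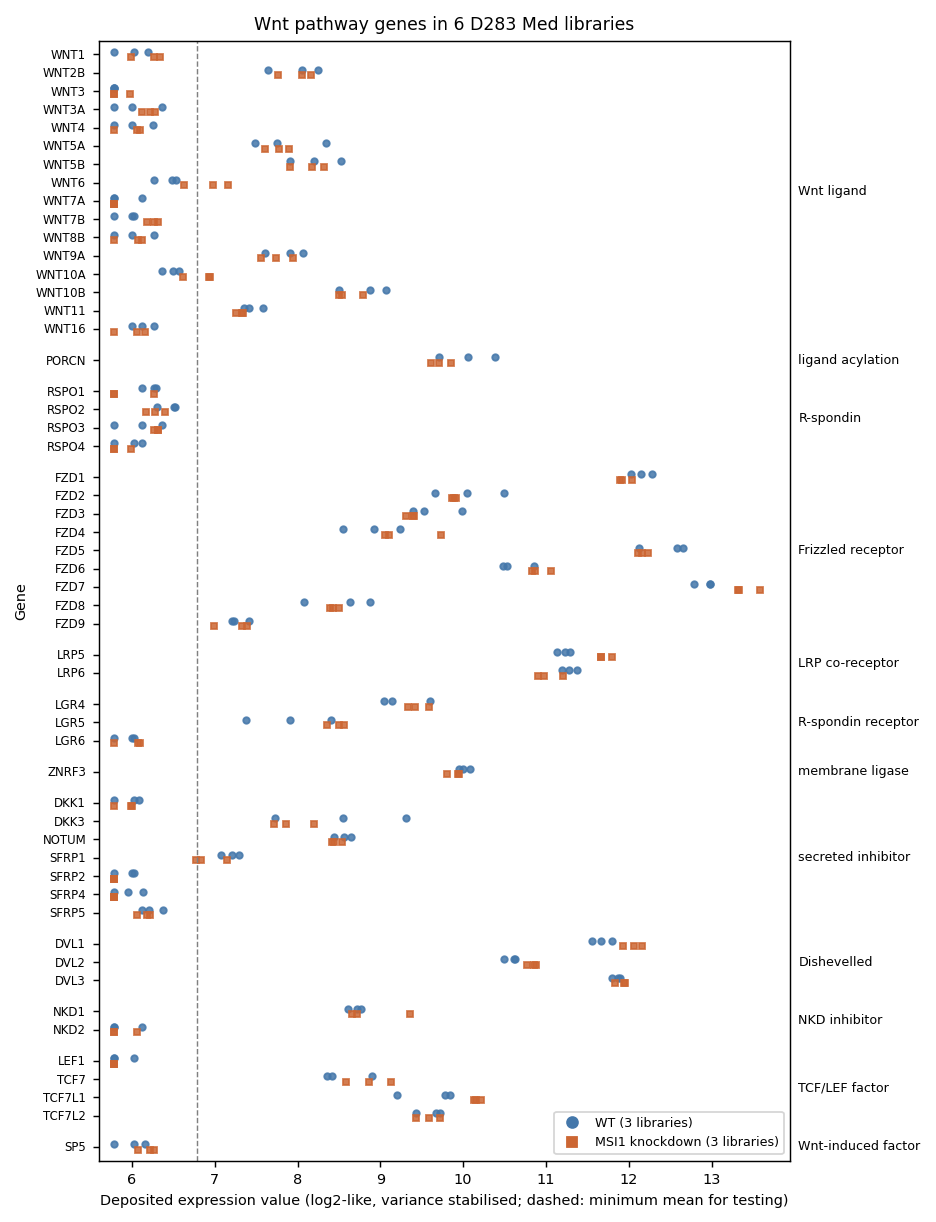
Deposited log2-like value of all 53 Wnt pathway genes in each of the 6 libraries, by role, with the minimum mean for testing as a dashed line. Circles are WT and squares knockdown libraries; all 9 Frizzled genes lie to the right of the line, whereas 10 of 16 ligand genes have means to its left.

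Of 16 Wnt ligand genes in the table, 6 were above the minimum and 10 below it. None of the 6 passed the test (limma; 0 at an unadjusted p under 0.05 and 0 by voom), 1 was higher and 5 were lower, and their median difference was -0.11. WNT10B, with the highest ligand level per kilobase (134 in WT), had 366, 262 and 431 normalised reads in WT and 270.2, 260.3 and 339 in knockdown (-0.21, adjusted p = 0.500, limma). WNT11, a ligand of the non-canonical branch, had 71.7, 97.1 and 78.3 in WT and 68.8, 62.9 and 70.8 in knockdown. It was the only tested Wnt pathway gene whose knockdown libraries all lay below WT, and its difference of -0.14 did not pass (adjusted p = 0.556). WNT5A, another non-canonical ligand, had 119, 223 and 86.0 in WT and 141, 101 and 122 in knockdown. WNT5B had 195, 267 and 144 in WT and 218, 142 and 189 in knockdown. Both overlapped widely, with differences of -0.10 and -0.08. WNT9A had 99.6, 169 and 143 in WT and 148, 117 and 94.4 in knockdown (-0.11). WNT2B had 105, 202 and 167 in WT and 166, 187 and 120.2 in knockdown (0.01), and it has 21.2% of its exon bases in common with ST7L.

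The 10 ligand genes below the minimum had between 1 read (WNT3) and 144 reads (WNT6) in the 6 libraries together. For 3 of them every knockdown library was above every WT library; these were 3 of the 22 Wnt pathway genes below the minimum (13.6%), beside 3.02% of all 18227 rows below it. Among rows with over 20 reads in all they were 2 of 7, beside 5.81%. In the other direction, with every knockdown library below WT, there were 0 of the 22. That was beside 4.78% of all rows below the minimum and 9.18% of those with over 20 reads. WNT6 had 13.2, 15.1 and 6.14 normalised reads in WT and 53.6, 40.2 and 19.3 in knockdown, from 9, 24 and 8 and from 53, 32 and 18 reads. WNT10A, which begins 6129 bases beyond the end of WNT6 on the same strand of chromosome 2, had 8.79, 16.4 and 13.8 in WT and 37.4, 18.9 and 36.5 in knockdown. These neighbours, at chr2:218859821-218874233 and chr2:218880363-218899581, were 3.29-fold and 2.38-fold higher in knockdown by their means. WNT7B had 0, 1.26 and 1.54 in WT and 6.07, 7.55 and 4.29 in knockdown. When no minimum was set, their adjusted p were 0.132, 0.293 and 0.215 (limma), so none passed. A library with 0 reads allows up to 3 reads by counting error alone, which was 1.89 to 4.39 normalised reads in these libraries. This bound takes each read as a separate molecule, and it would be wider if reads were counted in pairs.

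PORCN, the enzyme that attaches the lipid to Wnt proteins, had 728, 961 and 1233 normalised reads in WT and 732, 678 and 822 in knockdown. The groups overlapped (difference -0.32, SE 0.17, adjusted p = 0.289, limma). R-spondins, secreted proteins that strengthen the Wnt response by binding LGR receptors, were all 4 below the minimum, with 5 to 64 reads in the 6 libraries. LGR5, a stem cell marker and R-spondin receptor, had 142, 238 and 73.7 in WT and 260.1, 226 and 275 in knockdown. WT 2 lay inside the knockdown range, and the 1.68-fold ratio of means came with a difference of 0.58 (95% confidence interval 0.08 to 1.07, adjusted p = 0.167). It was 0.32 without WT 3 and 0.83 without WT 2. LGR4 had 422, 671 and 461 in WT and 541, 581 and 662 in knockdown (0.19, adjusted p = 0.538). ZNRF3, the ligase that removes Frizzled from the membrane, had 881, 974 and 915 in WT and 883, 786 and 876 in knockdown (-0.11, adjusted p = 0.613).

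Of 7 secreted inhibitors of the DKK, SFRP and NOTUM kind in the table, 3 were above the minimum, beside 13558 of all 31785 rows. All 3 had negative differences, with a median of -0.28, and none passed the test (limma; 0 at an unadjusted p under 0.05 and 0 by voom). DKK3, the divergent member of the Dickkopf family, had 274, 529 and 117 normalised reads in WT and 193, 136 and 114 in knockdown. Its WT libraries spread widely and overlapped knockdown (difference -0.61, SE 0.32, adjusted p = 0.291). Without WT 3 the difference was -1.01 and the adjusted p 0.0400, and without WT 2 they were -0.22 and 0.657. NOTUM, which removes the lipid from Wnt and lies on the long arm of chromosome 17, had 277, 296 and 246 in WT and 239.8, 268 and 245 in knockdown (-0.09, beside the arm's median of -0.33). SFRP1, a decoy that binds Wnt outside the cell, had 58.6, 66.2 and 46.8 in WT and 52.6, 30.2 and 26.8 in knockdown (-0.28, adjusted p = 0.286).

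The 3 Dishevelled genes, whose proteins pass the signal from receptor to cytoplasm, all had positive differences, with a median of 0.26, and none passed the test (limma; 2 at an unadjusted p under 0.05 and 0 by voom). DVL1, at chr1:1335276-1349350 on the minus strand, had 3133, 2899.9 and 3448 normalised reads in WT and 4462, 3793 and 4189 in knockdown. The groups did not overlap, with a ratio of 1.31 and a difference of 0.38 (95% confidence interval 0.12 to 0.64, adjusted p = 0.10, limma); it passed in 1 of 17 alternatives, library weights (0.0292). DVL2, on the short arm of chromosome 17, had 1473, 1460.0 and 1338 in WT and 1779, 1748 and 1639 in knockdown. Its groups did not overlap either (0.26, adjusted p = 0.196). DVL3 had 3444, 3688 and 3631 in WT and 3826, 3874 and 3535 in knockdown (0.06, adjusted p = 0.793). NKD1, a Dishevelled-binding inhibitor that Wnt induces, had 319, 330.5 and 288 in WT and 303, 553 and 319 in knockdown (0.22, adjusted p = 0.522); without knockdown 2 the difference was -0.0054.

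Of the TCF/LEF factors, 3 of 4 were above the minimum and none passed the test (limma; 1 at an unadjusted p under 0.05 and 0 by voom). TCF7L1, which often represses its targets in the absence of Wnt, lies at chr2:85133410-85310388, plus strand. It had 770.2, 812 and 484 normalised reads in WT and 1030.1, 1019 and 1079 in knockdown. The groups did not overlap, with a 1.51-fold ratio of means and a difference of 0.56 (95% confidence interval 0.19 to 0.93, adjusted p = 0.0887). With library weights its adjusted p was 0.0400, and no other alternative passed; without WT 3, the lowest library, the difference was 0.36 (adjusted p = 0.125). TCF7L2 had 709, 736 and 586 in WT and 665, 739 and 587 in knockdown (-0.02, adjusted p = 0.939), and TCF7 had 372, 241 and 226 in WT and 363, 454 and 282 in knockdown (0.31, adjusted p = 0.364). TCF7L1 reads were 1.09, 1.10 and 0.826 times those of TCF7L2 in WT and 1.55, 1.38 and 1.84 times in knockdown, again a description without a test. LEF1 had 2 reads in the 6 libraries, both in WT 3, and SP5, a transcription factor that Wnt induces, had 20.

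Lists of other pathway genes were counted in the same fit, leaving out the Wnt pathway genes described above. Of 105 genes tested, 5 rose (4.76%) and 3 fell (2.86%), beside 1.78% and 2.32% of all genes. Their median difference was -0.03, with 45 higher and 60 lower. CTNNB1, the gene of beta-catenin, stood at 11665 ± 1548 normalised reads in WT and at 11649 ± 614 in knockdown (SD, n = 3; difference 0.00, adjusted p = 0.989, limma). Among 18 genes of the beta-catenin destruction complex, APC2 and CSNK1D fell and AMER2 rose, and the median was -0.07. APC2, a neural relative of APC, had 435, 509 and 391 in WT and 246, 245 and 224 in knockdown (-0.69, SE 0.13, adjusted p = 0.0230). CSNK1D, a casein kinase on the long arm of chromosome 17, had 4265, 4824 and 4934 in WT and 3606, 3145 and 3083 in knockdown (-0.50, adjusted p = 0.0448). AMER2, a membrane protein that binds APC, had 399.7, 218 and 101 in WT and 645, 979.6 and 521 in knockdown (1.34, SE 0.31, adjusted p = 0.0401).

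Among 19 nuclear cofactors, TLE1 rose and HIPK2 fell, with a median of -0.03. TLE1, a corepressor that binds TCF factors, had 845, 852 and 893 normalised reads in WT and 1786, 1745 and 1401 in knockdown (0.85, SE 0.12, adjusted p = 0.0081, limma). It lost its call in 1 of 17 alternatives, without knockdown 1 (0.0594). HIPK2, a nuclear kinase, had 4016, 4795 and 3856 in WT and 2667, 2985 and 2668 in knockdown (-0.58, adjusted p = 0.0316). Among 18 other secretion and extracellular genes, GPC4, DRAXIN and APCDD1 rose, with a median of -0.08. GPC4, a cell-surface glypican, had 1420.2, 1647 and 1623 in WT and 2498, 2324 and 2810.3 in knockdown (0.67, adjusted p = 0.0175). DRAXIN, a guidance protein that also binds LRP6, had 52.7, 29.01 and 13.8 in WT and 159.9, 151 and 65.5 in knockdown (0.94, adjusted p = 0.0443). APCDD1, an inhibitor that binds Wnt and LRP5, had 704, 670.4 and 423 in WT and 1061, 1196 and 893 in knockdown (0.73, adjusted p = 0.0470).

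Calls among these 8 genes were lost in different numbers when 1 library was left out. Over all genes the calls then ran from 56 to 726, beside 556 with all libraries. A lost call thus does not show that a result rests on that library. The differences kept their direction: TLE1 0.79 to 0.95, GPC4 0.59 to 0.73, AMER2 0.998 to 1.68, DRAXIN 0.78 to 1.17 and APCDD1 0.54 to 0.85. APC2 ran from -0.76 to -0.61, HIPK2 from -0.64 to -0.49 and CSNK1D from -0.57 to -0.46. All 8 were lost without knockdown 1 (adjusted p 0.0594 to 0.178). Without WT 2, 6 were lost (AMER2 0.0887, APC2 0.0632, APCDD1 0.0710, CSNK1D 0.105, DRAXIN 0.0985, HIPK2 0.0798). Without WT 3, AMER2 (0.0561), APCDD1 (0.0680), CSNK1D (0.0792) and DRAXIN (0.0825) were lost. Without knockdown 2, 6 were lost (AMER2 0.130, APC2 0.0702, APCDD1 0.147, CSNK1D 0.132, DRAXIN 0.134, HIPK2 0.0712), and without knockdown 3, AMER2 (0.0674), APC2 (0.102), APCDD1 (0.0905), CSNK1D (0.194), GPC4 (0.0960) and HIPK2 (0.135). With all libraries, CSNK1D was also lost with no filter (0.0560), quantile normalisation (0.0575), no mean-variance trend (0.0565), voom (0.0514) and the replicate block (0.104), and so failed in 10 of 17 alternatives. APCDD1 failed in 7, among them no mean-variance trend (0.0526) and log2 of normalised reads plus 1 (0.0501). AMER2 was lost with robust variance (0.0770), DRAXIN with library weights (0.0555), and APC2 (0.0505) and HIPK2 (0.0555) with the replicate block.

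Of 21 tested genes reported as beta-catenin targets elsewhere, APCDD1 alone rose, with 10 higher, 11 lower and a median of -0.04. That count leaves out the Wnt pathway genes described above. Of these, LGR5, TCF7, NKD1, NOTUM and ZNRF3 are tested targets, and none passed. At an unadjusted p under 0.05 there were 8 of 21 (limma), beside 22.0% of all genes, and 1 passed by voom. MYC, also on this list, had 18519, 14128 and 17273 normalised reads in WT. In knockdown it had 21881, 23097 and 24285, all above WT (difference 0.48, adjusted p = 0.0976, limma). CCND1, the cyclin D1 gene, was below the minimum, at 20.5, 8.20 and 28.4 normalised reads in WT and 19.2, 8.80 and 19.3 in knockdown. Of 28 planar polarity and non-canonical genes, 0 passed the test (limma; 4 at an unadjusted p under 0.05 and 0 by voom), with a median of 0.02. SCRIB, a polarity scaffold, and CAMK2A, a calcium-dependent kinase, had the largest differences in that list, at -0.59 (adjusted p = 0.342) and -0.37 (adjusted p = 0.178). SCRIB ran from -0.22 without knockdown 1 to -0.91 without WT 1. Of 4 tested genes from the WNT medulloblastoma subgroup signature, 0 passed (0 at an unadjusted p under 0.05 and 0 by voom). NKD1, also in that signature, is described above and not counted here. AXIN2, the usual feedback reporter of the pathway and a gene of the long arm of chromosome 17, had a difference of -0.22 (adjusted p = 0.405), and EPHA7 one of -0.11 (adjusted p = 0.782).

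**Figure D5:**
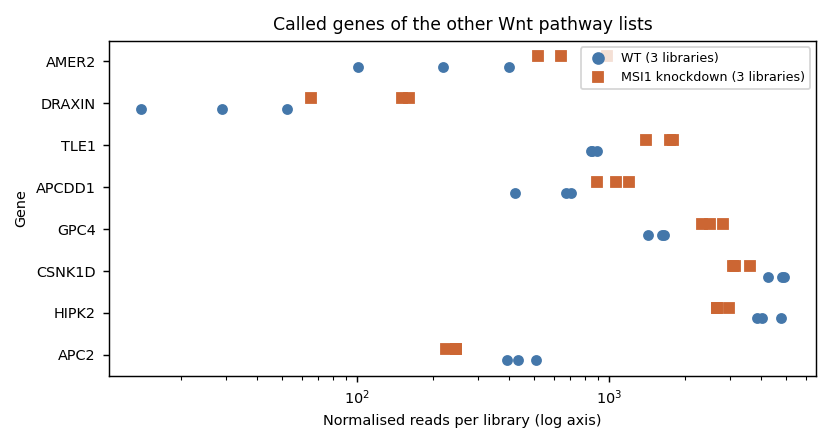
The 8 genes of other pathway lists with an adjusted p under 0.05, with normalised reads in each library on a log axis. WT and knockdown libraries do not overlap for any of the 8, for example TLE1 at 845 to 893 in WT and 1401 to 1786 in knockdown.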

How the data were processed

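RNA sequencing covered 3 WT and 3 knockdown libraries of D283 Med. The submitters' processing notes name build GRCh38 and, with no order, STAR, DESeq, CASAVA 1.8.2, MultiQC, FastQC and Trim Galore. Which counter, annotation, filter or strand setting was used is not given in the sources here, so reads of overlapping or antisense genes cannot be told apart. The authors deposited 1 log2-like, variance-stabilised value per gene and library. The columns not headed as knockdown were taken as WT by elimination. The lowest value, 5.79, stands for 0 reads; inverting the function (offset 55.2) gave whole reads for 100% of values (tolerance 0.01), and so the depth and the normalised reads.

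A row was tested where its mean was 1 or more above the lowest value (27.6 normalised reads); 13558 rows qualified and 18227 did not. Differences were tested with limma 3.58.1 in R 4.3.3, two-sided, with a mean-variance trend, without covariates, and Benjamini-Hochberg adjustment over all kept genes at 0.05. The method was tested on simulated data. With 3 libraries a group, the smallest p of an exact permutation test is 0.1. The genes, lists and alternatives were chosen with earlier results of these data known. Values per library are given for tested pathway genes that passed, did not overlap, or ranked in the first 3 of their role by level or by difference. Of other lists, called genes are named, and the 2 largest differences where none was called. FZD2, WNT5A, WNT6, WNT10A, WNT7B, CTNNB1, CCND1, MYC and the cell type markers were given values outside this rule, after these were seen. Coordinates and 3′UTRs are from GENCODE 29 and promoters from RefSeq (GRCh38.p14). There were 17 alternatives: filters, scalings, variance models, library weights, log2 of normalised reads plus 1 or 10, voom, the replicate number as a block, and each library left out.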

Additional observations from a re-analysis of the deposited data

How the results depend on the processing

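The count of tested Wnt pathway genes that passed (1, LRP5) was 0 with no filter (limma; 11 of 53 at an unadjusted p under 0.05), 4 with library weights (LRP5, FZD7, TCF7L1 and DVL1), 0 with the replicate block (6 of 31 at an unadjusted p under 0.05), and 0 to 2 with 1 library left out. The count over all genes, 556, was 1213 with library weights, 221 with the replicate block and 56 to 726 with 1 library left out. Of other pathway genes, 8 passed, 5 with the replicate block and 0 to 10 with 1 library left out. Same-numbered libraries did not deviate together (r of -0.0045, -0.25 and 0.0046), beside -0.14 to 0.18 for differently numbered ones. With 3 libraries a group this cannot show whether the numbers pair them. The median difference on the long arm of chromosome 17, -0.33, was -0.40 and -0.39 with log2 of normalised reads plus 1 or 10, -0.44 with voom, and -0.34 to -0.30 with 1 library left out.

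Of 31 tested Wnt pathway genes, 23 kept their direction in every alternative. WNT2B (0.01) turned to -0.0052 with median centring, -0.17 with library weights and -0.11 with voom. With 1 library left out, small differences turned: WNT2B ran from -0.16 to 0.14, WNT5A from -0.28 to 0.14, WNT5B from -0.24 to 0.072, FZD2 from -0.38 to 0.032, FZD8 from -0.32 to 0.080, FZD9 from -0.13 to 0.068, TCF7L2 from -0.11 to 0.050, NKD1 from -0.0054 to 0.35, and EPHA7 from -0.31 to 0.028. The cause was not tested. The 22 genes below the minimum were left out of the main test by that cut-off, and 15 of them had at most 20 reads in all 6 libraries. With no filter, 0 of all 53 genes passed (limma).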
